A study of Mus musculus with 4 samples.

Results

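Carbonic anhydrases interconvert carbon dioxide and bicarbonate, and the 9 members described here were Car2, Car3, Car4, Car5b, Car8, Car9, Car12, Car13 and Car14. They were chosen by symbol from the 24062 genes of a count table of mouse sciatic nerve, with the NF1 vs WT and PKO-NF1 vs PKO differences of Car2 and the muscle and fat expression of Car3 already known. Values of both Nf1 pairs are therefore given as descriptions. The table holds 16 carbonic anhydrase genes in all, and the other 7 were Car1, Car5a, Car6, Car7, Car10, Car11 and Car15.

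All animals were C57BL/6 mice of 4 months, and each of 4 genotypes gave 1 RNA sequencing library from sciatic nerve. PKO-NF1 nerves were P2RY14-/- Nf1fl/f with Dhh Cre. NF1 nerves were Nf1fl/fl with Dhh Cre, and the source name of that library calls it a repeat. PKO nerves were P2RY14-/-, and the control nerves were labelled WT. Nf1 encodes neurofibromin, a negative regulator of Ras. P2ry14 encodes a receptor for UDP-sugars that couples to inhibitory G proteins. Dhh Cre acts in the Schwann cell lineage, and bulk nerve RNA does not show which cells lost Nf1. The number of animals in a library and their sex are not given in the labels, and WT and PKO animals are not stated to carry the Cre or the floxed allele.

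By converting carbon dioxide into bicarbonate and a proton, these enzymes supply or clear acid beside ion transporters. Family members differ mainly in where they sit: in the cytosol (Car2, Car3, Car13), on the outer face of the cell membrane (Car4, Car9, Car12, Car14) or in mitochondria (Car5b). Car8 has lost the catalytic activity. In nerve tissue Car2 is best known from oligodendrocytes of the central nervous system and from sensory neurons, and elsewhere from red cells, osteoclasts and kidney.

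The start regions of 3 membrane members that were highest in NF1 are shown, because Car9 is a textbook target of hypoxia-inducible factors and the letters of their short core element can be looked for there. RefSeq promoter entries on GRCm38.p6 matched 5 of the 9 members (Car4, Car5b, Car9, Car12 and Car14). Each line gives the 250 bases before the transcription start of the RefSeq entry, 5′ to 3′ on the gene's own strand. They lie at chr4:43506776-43507025 (plus strand) for Car9, chr3:95904686-95904935 (minus strand) for Car14 and chr9:66713436-66713685 (plus strand) for Car12. Capitals mark every match to ACGTG or GCGTG on either strand. The letters ACGTG also form part of the E-box CACGTG.
Car9: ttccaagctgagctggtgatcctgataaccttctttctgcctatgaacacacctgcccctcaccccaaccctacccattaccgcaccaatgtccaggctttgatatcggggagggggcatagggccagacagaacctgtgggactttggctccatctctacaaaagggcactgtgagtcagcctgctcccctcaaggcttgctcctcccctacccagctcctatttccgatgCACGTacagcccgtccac
Car14: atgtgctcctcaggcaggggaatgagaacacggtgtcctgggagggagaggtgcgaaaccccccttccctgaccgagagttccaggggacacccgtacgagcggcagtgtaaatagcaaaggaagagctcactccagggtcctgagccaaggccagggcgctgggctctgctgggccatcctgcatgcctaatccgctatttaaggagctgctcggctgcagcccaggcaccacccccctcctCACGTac
Car12: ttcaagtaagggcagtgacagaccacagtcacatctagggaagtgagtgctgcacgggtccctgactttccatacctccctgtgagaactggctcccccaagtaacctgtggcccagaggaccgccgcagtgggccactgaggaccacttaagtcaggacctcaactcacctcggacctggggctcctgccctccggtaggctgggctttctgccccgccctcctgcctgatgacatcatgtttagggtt
The Car9 window held CACGT, the reverse complement of ACGTG, at -18 to -14 from the RefSeq start, and the Car14 window held the same letters at -7 to -3. The GENCODE M21 annotation places the Car9 start at 43506966 and the Car14 start at 95904691. By that annotation the Car9 match lies inside the gene, and the Car14 match lies across its start. The Car5b window held 5 matches, all of the GCGTG form, and those of Car4 and Car12 held none. Of 32851 mouse promoter windows of the same length, 38.6% held either form and 16.6% held the ACGTG form, so a match of this kind is common. Matches are a description of letters only.

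The libraries held 17771101 counts in PKO-NF1, 19064779 in NF1, 20362685 in PKO and 14111201 in WT. Levels are CPM, counts per 1e6 after scaling by edgeR's trimmed mean of M values (TMM). A count of 0 leaves room for up to 3 counts, which equalled 0.152 to 0.183 CPM depending on the library. With 1 library per genotype no test between genotypes was made, and every difference below is between 2 libraries. Intervals are exact 95% intervals that cover counting error only. A gene was called higher or lower where the ratio was at least 2-fold and its interval excluded 1. P2ry14 stood at 10.6 CPM in PKO-NF1 and 65.3 in NF1, and at 10.9 in PKO and 37.6 in WT. Nf1 stood at 20.5 CPM in PKO-NF1 and 41.0 in PKO, and at 63.4 in NF1 and 72.8 in WT. NF1 was at 0.872 of WT (0.805 to 0.944) and PKO at 0.563 of WT (0.513 to 0.618). The Nf1 level thus did not separate the Nf1-mutant libraries, named by their labels, from the others. All 18 myelinating Schwann cell markers, which mark the tissue, were detected in every library, with sums of 20604, 9448, 36425 and 26448 CPM in PKO-NF1, NF1, PKO and WT. The NF1 library stood apart in muscle transcripts, which made up 7.22% of its counts, against 0.0376% in PKO-NF1, 0.0180% in PKO and 0.151% in WT. It also had 2015 CPM of Xist and 0 counts of the Y-linked gene Ddx3y, where the other 3 libraries had 22.3 to 51.4 CPM of Ddx3y. Xist stood at 0.549 CPM in PKO-NF1, 278 in PKO and 608 in WT. PKO and WT thus held both Xist and Ddx3y, while PKO-NF1 held Ddx3y with hardly any Xist. Every NF1 result carries the muscle difference, and every comparison carries a difference in these sex-linked transcripts. The part of these differences in the results was not tested.

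All 9 members reached 1 CPM in at least 1 library, the filter that kept 14700 genes, and Car9 passed it through NF1 alone. In NF1 vs WT, 3 of the 9 were called higher (Car2, Car9 and Car14) and 0 lower, where 10.4% of all kept genes were called higher and 6.31% lower. In PKO-NF1 vs PKO, 2 were called higher (Car2 and Car12) and 0 lower, where 5.20% of kept genes were called higher and 9.70% lower. Car2 was the member called higher in both pairs, as were 1.29% of kept genes, while 2.60% were called lower in both and 0 members were. The rule that named the members used the Nf1 pairs, so nothing is read from these counts. In PKO vs WT, 0 members were called higher and 1 lower (Car12), beside 10.0% and 5.22% of kept genes. In PKO-NF1 vs NF1, 1 was called higher (Car4) and 4 lower (Car2, Car9, Car12 and Car14), beside 7.90% and 13.8%. The median log2 ratio of the members against that of all kept genes was 0.43 against -0.001 in NF1 vs WT, -0.14 against -0.01 in PKO-NF1 vs PKO, 0.35 against -0.08 in PKO vs WT and -0.20 against -0.01 in PKO-NF1 vs NF1. The comparisons NF1 vs WT and PKO vs WT share the WT library, and every other pair of comparisons except the 2 Nf1 pairs, or the 2 P2ry14 pairs, also shares a library.

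**Figure D1:**
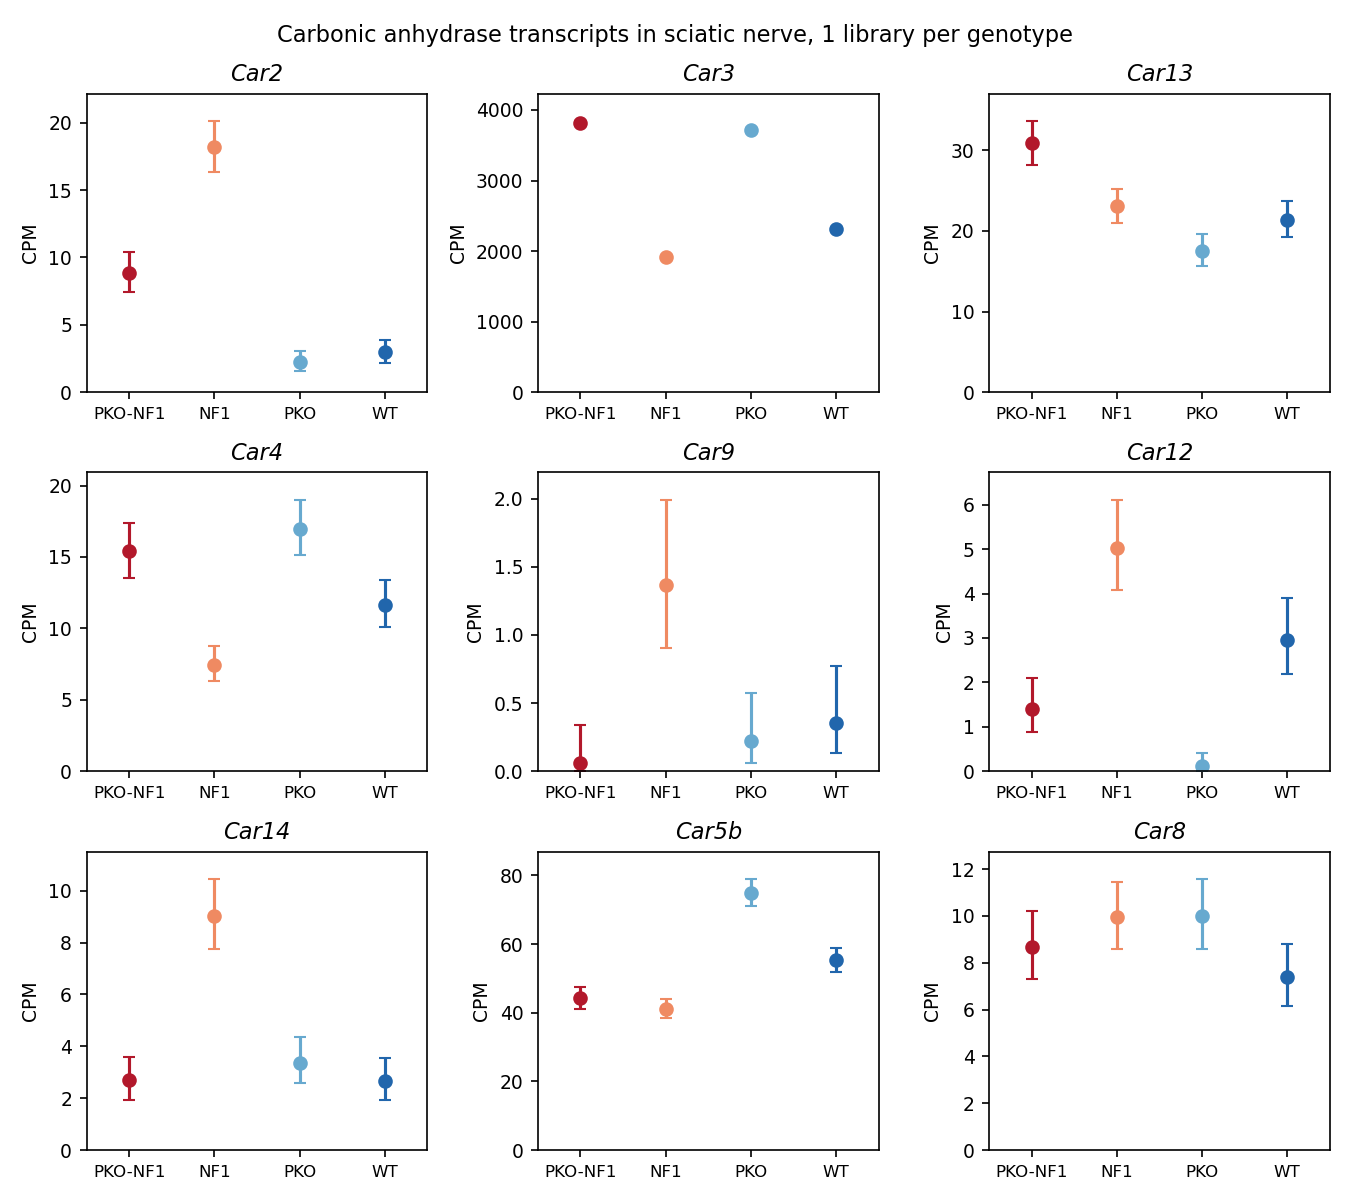
Level of each of the 9 carbonic anhydrases in CPM (linear axis starting at 0, own scale per gene) in the PKO-NF1, NF1, PKO and WT libraries, 1 point per library with bars for the exact 95% counting interval (for Car3 the bar is smaller than the point). Car2 stands at 8.85 and 18.2 CPM in the 2 Nf1-mutant libraries and under 3 CPM in PKO and WT, while Car9 and Car14 stand high in NF1 alone.

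Car2, the fast cytosolic enzyme, was counted 145 times in PKO-NF1, 358 times in NF1, 40 times in PKO and 50 times in WT. These counts came to 8.85 CPM (7.47 to 10.4), 18.2 CPM (16.3 to 20.2), 2.25 CPM (1.61 to 3.06) and 2.95 CPM (2.19 to 3.89) in the same order. The 2 Nf1-mutant libraries were the high ones, and their intervals met neither each other nor those of PKO and WT, which overlapped. NF1 was 6.16-fold above WT (4.57 to 8.45); PKO-NF1 was 3.93-fold above PKO (2.76 to 5.73). Set against the other control library, NF1 was 8.08-fold above PKO (5.82 to 11.5) and PKO-NF1 was 2.999-fold above WT (2.16 to 4.22), a comparison added after the data were seen. The log2 ratio of the PKO-NF1 pair minus that of the NF1 pair was -0.65, with a counting interval of -1.31 to 0.02 that includes 0. Within the Nf1 mutants, PKO-NF1 was 2.05-fold below NF1 (1.69 to 2.51). PKO stood at 0.762 of WT (0.490 to 1.18), an interval that includes 1.

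Erythroid, osteoclast and neuron markers, of cells known for Car2, were set beside it, and so was the skeletal muscle list. The 13 erythroid marker genes in the table summed to 209 CPM in PKO-NF1, 97.1 in NF1, 430 in PKO and 304 in WT, and all 6 globin genes among them were listed at 0 in every library. Alas2, the red-cell enzyme of haem synthesis, stood at 126 CPM in PKO-NF1 and 10.9 in PKO, and at 4.57 in NF1 and 14.9 in WT. Of the 4 erythroid genes kept, 3 were called higher and 1 lower in PKO-NF1 vs PKO, and 0 higher and 3 lower in NF1 vs WT. The 13 osteoclast and bone genes summed to 241 CPM in PKO-NF1, 88.9 in NF1, 359 in PKO and 161 in WT. Of the 5 that were kept, 0 were called higher in either Nf1 pair, with 1 lower in PKO-NF1 vs PKO and 3 lower in NF1 vs WT. The 16 neuron and axon genes summed to 248 CPM in PKO-NF1, 98.9 in NF1, 341 in PKO and 132 in WT, with 0 of 10 kept genes called higher and 1 called lower in each Nf1 pair. Of the 29 skeletal muscle genes kept, 27 were called higher and 0 lower in NF1 vs WT. In PKO-NF1 vs PKO, 15 of them were called higher and 1 lower. The muscle list summed to 407 CPM in PKO-NF1, 69842 in NF1, 207 in PKO and 1260 in WT. The part of these cells, muscle included, in the Car2 values was not tested. Divided by the summed level of the non-myelinating and immature Schwann cell list, Car2 came to 0.308% in PKO-NF1, 0.806% in NF1, 0.122% in PKO and 0.121% in WT. The spread of 6.65-fold was the smallest against any of 11 cell type lists, but Car2 undivided spread 8.08-fold. That list summed to 2873 CPM in PKO-NF1, 2254 in NF1, 1844 in PKO and 2435 in WT. It had 1 gene called higher and 2 lower in NF1 vs WT, and 5 higher and 2 lower in PKO-NF1 vs PKO. In bulk tissue, fewer cells of a type and less RNA per cell cannot be told apart.

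The 3 genes whose pattern over the 4 libraries was nearest to Car2 were Asnsd1, Vmn1r181 and Ociad2, at Euclidean distances of 0.409, 0.558 and 0.589 between centred log2 profiles. Asnsd1 stood at 93.1 CPM in PKO-NF1, 231 in NF1, 40.1 in PKO and 38.5 in WT. Car9, Car12 and Car14 averaged under 5 CPM over the libraries and were given no such neighbours.

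Car3, a cytosolic enzyme of low activity known from slow muscle, fat and liver, was by far the most abundant member. It was counted 62587 times in PKO-NF1, 37640 times in NF1, 66013 times in PKO and 39161 times in WT, or 3819, 1910, 3711 and 2311 CPM in that order. It made up 96.4%, 92.8%, 96.0% and 94.1% of all carbonic anhydrase counts in those libraries. PKO-NF1 and PKO were the high libraries and NF1 and WT the low ones. PKO-NF1 stood at 1.999 times NF1 (1.97 to 2.03), just short of the 2-fold line, and PKO at 1.61 times WT (1.59 to 1.63). NF1 stood at 0.827 of WT (0.815 to 0.838), and PKO-NF1 at 1.03 times PKO (1.02 to 1.04). With trends in transcript length and GC content removed, PKO stood at 1.01 times WT, PKO-NF1 at 0.730 of PKO and 1.37 times NF1, and NF1 at 0.591 of WT. Without Car3, the family summed to 143.6 CPM in PKO-NF1, 147.9 in NF1, 155 in PKO and 145.7 in WT.

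Car3 is known from fat and muscle, and its level was set beside the markers of both. The 24 adipocyte genes summed to 19081 CPM in PKO-NF1, 8345 in NF1, 26183 in PKO and 11598 in WT, and Car3 came to 20.0%, 22.9%, 14.2% and 19.9% of that sum, a 1.62-fold spread. The 30 skeletal muscle genes summed to 407 CPM in PKO-NF1, 69842 in NF1, 207 in PKO and 1260 in WT, which left Car3 at between 2.74% and 1798% of the sum, a 657-fold spread. Over the other lists the spread was 1.27-fold against nerve fibroblast and perineurial genes, 1.43-fold against macrophage genes, 1.59-fold against mast cell genes and 1.78 to 2.59-fold against the rest. The part of these cells in the Car3 values was not tested. NF1, with the highest muscle sum, had the lowest Car3. Of the 23 adipocyte genes kept, 1 was called higher and 14 lower in NF1 vs WT, and 11 were called higher and 1 lower in PKO-NF1 vs NF1. Cfd, the adipocyte complement factor D, stood at 5638 CPM in PKO-NF1, 1404 in NF1, 8465 in PKO and 3122 in WT. Fabp4 and Scd1, also among the 3 most abundant genes of the adipocyte list, did not fall in NF1 vs WT. Fabp4 stood at 4476, 1411, 5181 and 1321 CPM, and Scd1 at 2762, 2904, 4925 and 2634 CPM, in the same order. Cidea was the adipocyte gene called higher in NF1 vs WT, at 3.40 CPM in NF1 and 0.472 in WT. Acta1, the actin of skeletal fibres, stood at 25.5 CPM in PKO-NF1, 8973 in NF1, 4.61 in PKO and 174 in WT, and Mylpf, a fast myosin light chain, stood at 40.6 CPM in PKO-NF1, 8362 in NF1, 6.07 in PKO and 80.1 in WT. Myh7, the slow myosin heavy chain, was chosen after the values were seen and had 0 counts in all 4 libraries. Slow troponin Tnni1, likewise chosen, stood at 10.1, 5.84, 7.93 and 6.37 CPM in PKO-NF1, NF1, PKO and WT.

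**Figure D2:**
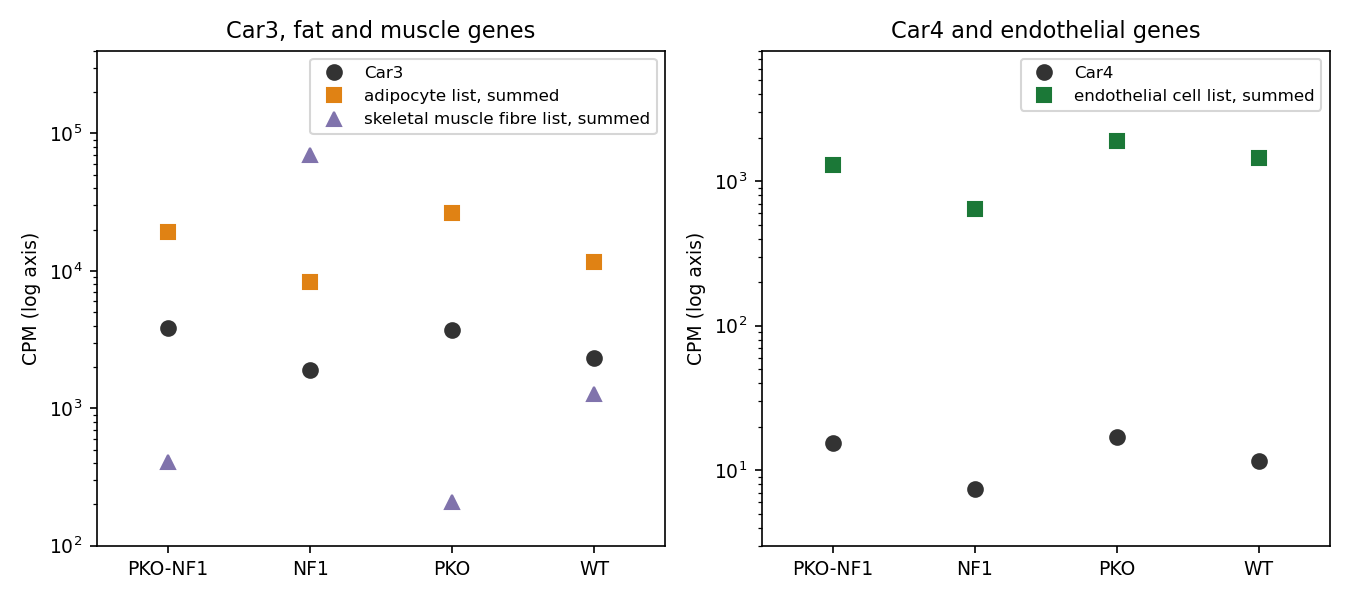
CPM on log axes, 1 point per library, for Car3 with the summed adipocyte and skeletal muscle lists (left) and for Car4 with the summed endothelial list (right), in the PKO-NF1, NF1, PKO and WT libraries. The muscle sum is 69842 CPM in NF1, where Car3 is lowest at 1910 CPM. Car4, the endothelial sum and the adipocyte sum are each lowest in NF1 and highest in PKO.

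Nearest to Car3 in pattern was Ifitm3, an interferon-induced membrane protein, at a distance of 0.022, with 274 CPM in PKO-NF1, 135.7 in NF1, 269.7 in PKO and 165.7 in WT. Cryab and Pon3 came next at 0.052 and 0.055. These distances say only that the profiles had similar shapes over 4 libraries.

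Car13, the third cytosolic member, was counted 506, 454, 312 and 362 times and stood at 30.9, 23.0, 17.5 and 21.4 CPM in PKO-NF1, NF1, PKO and WT. PKO-NF1 was the high library. It stood at 1.76 times PKO (1.53 to 2.03) and at 1.34 times NF1 (1.18 to 1.52), whereas NF1 stood at 1.08 times WT (0.937 to 1.24) and PKO at 0.821 of WT (0.704 to 0.958), and none of these was a call. The PKO-NF1 pair exceeded the NF1 pair by 0.71 in log2 ratio (0.42 to 0.99). With trends in transcript length and GC content removed, PKO-NF1 stood at 1.04 times PKO and 1.03 times NF1, NF1 at 0.746 of WT and PKO at 0.672 of WT, so PKO-NF1 no longer stood apart and NF1 vs WT turned direction. NF1 vs WT also turned with total counts alone, to a log2 ratio of -0.11. Gpr89, Itfg1 and Arfip1 had the nearest patterns, Gpr89 at a distance of 0.028.

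Car2, Car3 and Car13 lie in 1 cluster with Car1 on chromosome 3 (GRCm38, GENCODE M21 annotation), in the order Car13, Car1, Car3 and Car2. Car13 spans chr3:14641727-14663002, Car3 chr3:14863512-14872523 and Car2 chr3:14886273-14900770, all on the plus strand, with Car1 at chr3:14766216-14808368 on the minus strand. The gap between Car3 and Car2 is 13749 bases. Across the cluster, Car2 was called higher in both Nf1 pairs and Car3 and Car13 in neither. Car1, known from red cells and colon, had few counts: 27 in PKO-NF1, 19 in NF1, 13 in PKO and 5 in WT. It was called higher in both Nf1 pairs, 3.27-fold in NF1 vs WT (1.18 to 11.2) and 2.25-fold in PKO-NF1 vs PKO (1.12 to 4.76).

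Car4, anchored to the outer face of the cell membrane and known from capillary endothelium, was counted 252 times in PKO-NF1, 147 times in NF1, 302 times in PKO and 197 times in WT. Its levels were 15.4, 7.46, 17.0 and 11.6 CPM, so NF1 was the low library. PKO-NF1 was called 2.06-fold above NF1 (1.68 to 2.54). NF1 stood at 0.642 of WT (0.515 to 0.799), PKO-NF1 at 0.906 of PKO (0.763 to 1.07) and PKO at 1.46 times WT (1.22 to 1.76). The call over NF1 was lost where length and GC trends were removed, at 1.44-fold, and with scaling by total counts alone, where the log2 ratio was 0.88. With the trends removed NF1 was called lower than WT, at 0.482, and PKO vs WT turned direction, to 0.792 (0.660 to 0.953). The 23 endothelial genes summed to 1297 CPM in PKO-NF1, 646 in NF1, 1897 in PKO and 1456 in WT, and Car4 came to 1.19%, 1.16%, 0.895% and 0.798% of that sum. In NF1 vs WT, 13 of the 23 endothelial genes were called lower and 0 higher, and in PKO-NF1 vs PKO 10 were called lower and 0 higher. The share of Car4 spread 1.485-fold against the endothelial list, 1.489-fold against nerve fibroblast and perineurial genes and 1.545-fold against adipocyte genes. It spread 1.759-fold or more against the other lists. The adipocyte sums, 19081 CPM in PKO-NF1, 8345 in NF1, 26183 in PKO and 11598 in WT, had the library order of Car4. The part of endothelial, fibroblast or fat RNA in the Car4 values was not tested. Btd, C1qtnf9 and Evc2 were nearest in pattern to Car4, Btd at a distance of 0.054. Car4 spans chr11:84957786-84966044 on the plus strand.

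Car9, a transmembrane enzyme with an extracellular catalytic domain and a textbook hypoxia-induced gene, had 1 count in PKO-NF1, 27 in NF1, 4 in PKO and 6 in WT. These came to 0.0610, 1.37, 0.225 and 0.354 CPM, and NF1 was the one library with more than 6 counts. NF1 stood 3.87-fold above WT (1.57 to 11.5). PKO-NF1 stood at 0.271 of PKO (0.00551 to 2.74) and at 0.0445 of NF1 (0.00109 to 0.270), both from 1 count in PKO-NF1. PKO stood at 0.635 of WT (0.132 to 2.68). Car9 spans chr4:43506966-43513729 on the plus strand and overlaps the antisense gene Gm12454, with which unstranded reads would be shared.

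Car12, a second transmembrane enzyme, had 23 counts in PKO-NF1, 99 in NF1, 2 in PKO and 50 in WT. The levels were 1.40, 5.02, 0.112 and 2.95 CPM, with NF1 high and PKO at under the limit of 3 counts. PKO-NF1 stood 12.5-fold above PKO (3.08 to 109) on the 2 counts of that library, and PKO stood 26.2-fold below WT (6.89 to 223) on the same 2 counts. NF1 stood at 1.70 times WT (1.20 to 2.44), which is no call. PKO-NF1 was called 3.58-fold below NF1 (2.26 to 5.91). Against the other control, PKO-NF1 stood at 0.476 of WT (0.277 to 0.794), so its direction depended on which control library was used. NF1 was above both PKO and WT, at 44.7 times PKO (12.1 to 374). Car12 spans chr9:66713686-66766845 on the plus strand.

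Car14, the other transmembrane enzyme, had 44 counts in PKO-NF1, 178 in NF1, 60 in PKO and 45 in WT. The levels were 2.69, 9.03, 3.37 and 2.66 CPM, and NF1 alone was high. NF1 was 3.40-fold above WT (2.44 to 4.83) and 2.68-fold above PKO (1.99 to 3.65). PKO-NF1 stood at 0.796 of PKO (0.527 to 1.19) and 3.37-fold below NF1 (2.41 to 4.79). The log2 ratio of the PKO-NF1 pair minus that of the NF1 pair was -2.10 (-2.83 to -1.36). Car14 spans chr3:95897768-95904691 on the minus strand and overlaps Aph1a, a gamma-secretase subunit gene on the opposite strand. Aph1a stood at 36.7, 34.8, 34.6 and 38.1 CPM in PKO-NF1, NF1, PKO and WT, a narrower spread than that of Car14.

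**Figure D3:**
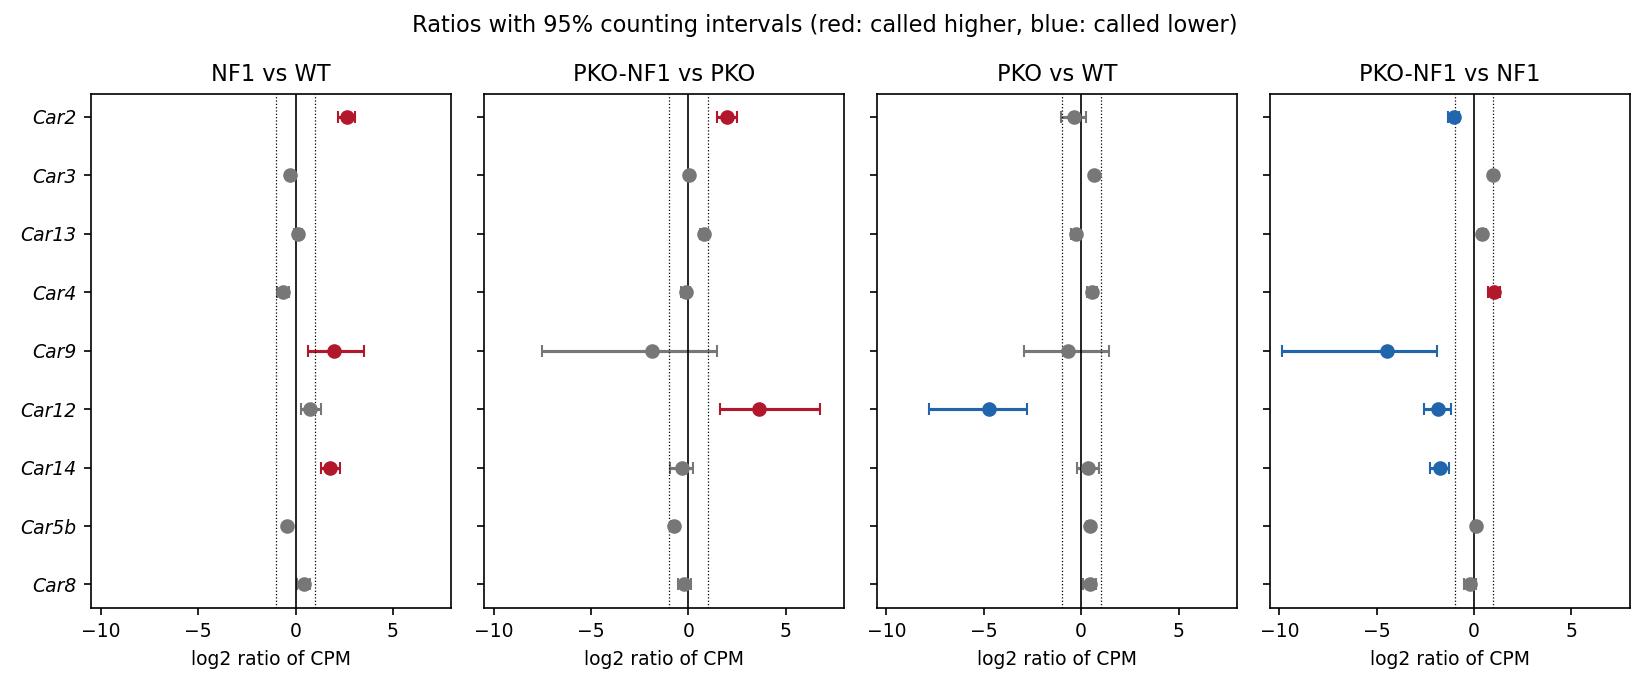
The log2 ratio of CPM of each member in the 4 comparisons, 1 panel each, with bars for exact 95% counting intervals, dotted lines at 2-fold and colour for calls (red higher, blue lower, grey not called). Car2 lies at 2.62 in NF1 vs WT and at 1.98 in PKO-NF1 vs PKO, and Car14 at 1.77 and -0.33 in those comparisons.

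Car5b, a mitochondrial enzyme, was counted 725, 810, 1332 and 937 times and stood at 44.2, 41.1, 74.9 and 55.3 CPM in PKO-NF1, NF1, PKO and WT. Both Nf1-mutant libraries were the low ones, at 0.591 of PKO for PKO-NF1 (0.539 to 0.647) and 0.743 of WT for NF1 (0.676 to 0.818), and neither was a call at 2-fold. PKO stood at 1.35 times WT (1.25 to 1.47), and PKO-NF1 at 1.08 times NF1 (0.972 to 1.19). With length and GC trends removed, PKO-NF1 vs PKO came to 0.436 and was called lower, and PKO-NF1 vs NF1 turned to 0.978. With total counts alone, PKO vs WT and PKO-NF1 vs NF1 turned to log2 ratios of -0.02 and -0.06. Ano1, Acy3 and Snrnp200 were nearest in pattern, Ano1 at a distance of 0.075. Car5b spans chrX:163976822-164027997 on the minus strand.

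Car8, which binds the inositol trisphosphate receptor Itpr1 and does not hydrate carbon dioxide, was counted 142, 196, 178 and 125 times. It stood at 8.66, 9.95, 10.01 and 7.38 CPM in PKO-NF1, NF1, PKO and WT, and all 4 libraries lay within 1.36-fold of each other. NF1 stood at 1.35 times WT (1.07 to 1.70), PKO-NF1 at 0.866 of PKO (0.689 to 1.09), PKO at 1.36 times WT (1.07 to 1.72) and PKO-NF1 at 0.871 of NF1 (0.697 to 1.09). With total counts alone, PKO vs WT turned to a log2 ratio of -0.02, and with trends removed PKO-NF1 stood at 0.645 of PKO. Rab24, Tgfb2 and Fam161a were nearest in pattern. Car8 spans chr4:8143362-8239041 on the minus strand and overlaps the pseudogene Gm11799 and the miRNA gene Gm25355.

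Compared per kilobase of the longest annotated transcript, Car3 ranked first of the 16 family genes in every library, at 2274 CPM per kb in PKO-NF1, 1138 in NF1, 2211 in PKO and 1376 in WT. Car2 ranked 6 in PKO-NF1, 4 in NF1, 10 in PKO and 8 in WT. Its level per kb was 4.95, 10.2, 1.26 and 1.65 CPM in the same order. Car12 ranked 12, 9, 14 and 11, and Car14 ranked 8, 7, 7 and 9. Among genes outside the 9, Car11, a secreted member without catalytic activity, stood at 27.2 CPM in PKO-NF1, 29.2 in NF1, 23.6 in PKO and 35.9 in WT. Of the 7 other family genes, 4 were kept (Car1, Car7, Car11 and Car15), and 1 was called higher (Car1) and 1 lower (Car15) in NF1 vs WT. In PKO-NF1 vs PKO, 1 was called higher (Car1) and 2 lower (Car7 and Car15). Car15 stood at 0.976, 0.913, 2.14 and 2.71 CPM in PKO-NF1, NF1, PKO and WT.

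**Figure D4:**
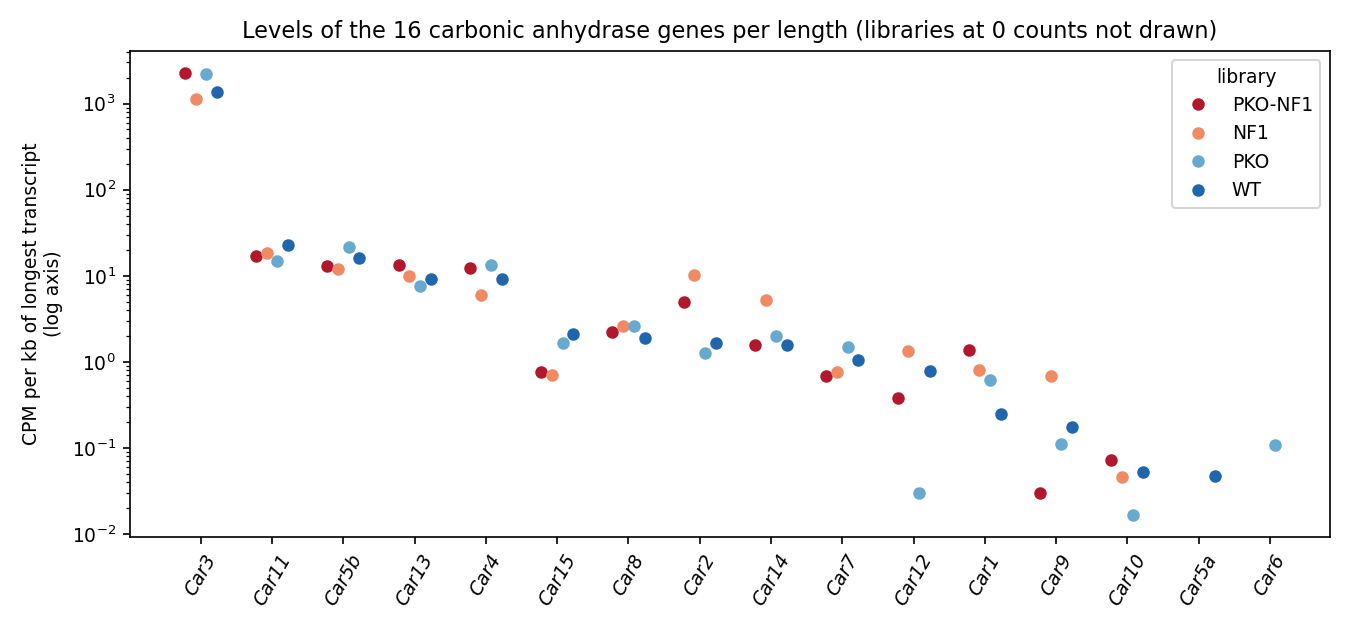
CPM per kilobase of longest transcript of the carbonic anhydrase genes on a log axis, with the PKO-NF1, NF1, PKO and WT libraries as separate points. Car3 lies at 1138 CPM per kb or higher in every library, libraries at 0 counts are not drawn, and Car2 lies at 10.2 in NF1 and 1.26 in PKO.

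The acid and bicarbonate transporters, which work beside the surface enzymes, were examined as a list of 29 genes, of which 26 were kept. In NF1 vs WT 3 were called higher and 7 lower, with a median log2 ratio of -0.20, and in PKO-NF1 vs PKO 1 was called higher and 8 lower, with a median of -0.30. In PKO vs WT 0 were called higher and 1 lower (median -0.28), and in PKO-NF1 vs NF1 2 higher and 10 lower (median -0.61). Slc16a3, a lactate exporter, stood at 1.71 CPM in PKO-NF1, 33.3 in NF1, 2.81 in PKO and 3.13 in WT, and Slc9a2, a sodium-proton exchanger, at 0.366, 6.34, 0.281 and 0.531 CPM. Like Car14, both were high in NF1 alone, the library high in muscle transcripts. The part of muscle in the NF1 values of Slc16a3 and Slc9a2 was not tested. Slc9a3, another sodium-proton exchanger, stood at 2.07 CPM in PKO-NF1, 1.73 in NF1, 7.53 in PKO and 10.9 in WT, and was called lower in both Nf1 pairs.

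Lists of proton pump subunits and hypoxia response genes were counted in the same way. Of 19 V-ATPase subunits kept of 22 listed, 1 was called higher and 1 lower in NF1 vs WT, and 0 higher and 1 lower in PKO-NF1 vs PKO. Medians were -0.18 and 0.16 in log2 ratio. The same subunits had 2 higher and 0 lower in PKO vs WT, and 3 higher and 1 lower in PKO-NF1 vs NF1. Of 26 hypoxia response genes, all kept, 4 were called higher and 2 lower in NF1 vs WT (median 0.30), and 1 higher and 0 lower in PKO-NF1 vs PKO (median 0.07). In PKO vs WT 4 were called higher and 0 lower, and in PKO-NF1 vs NF1 4 higher and 7 lower. Ldha, the lactate dehydrogenase subunit of muscle and of glycolytic cells, stood at 388 CPM in PKO-NF1, 1030 in NF1, 386 in PKO and 254 in WT. Pgk1, a glycolytic kinase, stood at 126, 295, 77.2 and 77.2 CPM in the same order. Both genes are also abundant in skeletal muscle, whose transcripts were high in NF1, and the part of muscle in the NF1 values of Car9, Car14, Ldha and Pgk1 was not tested. Ddit4 and Lox of the same hypoxia list were called lower in NF1 vs WT, at 0.495 and 0.434 of WT. Ndrg1, also of that list, stood at 0.502 of WT, which is no call.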

How the data were processed

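Total RNA isolated with Trizol went into TruSeq libraries, per the labels' protocols. Unnormalized gene counts, whole numbers, were deposited by the authors. The submitters' processing notes name HISAT2 2.0.5, featureCounts 1.5.2, FastQC 0.11.7 and mm10. Strand, multi-mapping reads and the annotation (each not given in the sources used here) leave genes that overlap others uncertain. Read copies made by PCR are not independent molecules.

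Counts were scaled with edgeR 4.0.16 (R 4.3.3; TMM factors 0.922, 1.03, 0.873 and 1.20 in PKO-NF1, NF1, PKO and WT). Ratios carry exact conditional (Clopper-Pearson) 95% intervals, and levels exact Poisson ones. Transcript lengths came from GENCODE M21, where 22750 symbols matched directly and 935 by a synonym. The ratio step was tested on simulated data. DESeq2 1.42.0 size factors, total counts, scaling without muscle and fat genes, spline trends (4 degrees of freedom) in length and GC content, other filters and a 1.5-fold threshold were tried as alternatives.

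The members and the 16 gene lists were chosen with earlier results of these data known. Genes could be named from the 9 members, the rest of the family and the 3 nearest profiles to each member that averaged 5 CPM or more (log2 of CPM plus 0.5, centred). Of each list, its 3 most abundant genes and the most changed called genes of each Nf1 pair could also be named. Only some of the list genes so selected are named. P2ry14 and Nf1 are named as checks of the genotypes and Aph1a as an overlapping gene, while Myh7 and Tnni1 were chosen after the values were seen.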

Additional observations from a re-analysis of the deposited data

Results flagged for a closer look

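Car3 stood on opposite sides of its control in the 2 Nf1 pairs, with a log2 ratio of 0.04 in PKO-NF1 vs PKO and -0.27 in NF1 vs WT. Car13 stood on opposite sides in the 2 P2ry14 pairs, with a log2 ratio of 0.42 in PKO-NF1 vs NF1 and -0.28 in PKO vs WT. None of these 4 ratios was a call at 2-fold, and with 1 library per genotype the difference between pairs was not tested. With trends in transcript length and GC content removed, Car3 stood below its control in both Nf1 pairs, at 0.730 of PKO in PKO-NF1 and 0.591 of WT in NF1. Car13 then stood at 0.672 of WT in PKO and at 1.03 times NF1 in PKO-NF1 (0.903 to 1.17). That interval includes 1, so the opposite directions of Car13 were no longer seen.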

How the results depend on the processing

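Car2 was called higher in both Nf1 pairs under every scaling tried, at log2 ratios of 2.31 to 2.63 in NF1 vs WT and 1.64 to 2.05 in PKO-NF1 vs PKO. DESeq2 size factors and scaling without muscle and fat genes changed no count of members called. A 5 CPM filter removed Car9, which left 2 members higher in NF1 vs WT and 3 lower in PKO-NF1 vs NF1. At 1.5-fold, 4 were higher in NF1 vs WT (Car12 added) and 3 in PKO-NF1 vs PKO (Car13 added). Total counts alone shifted every log2 ratio by -0.22 in NF1 vs WT, 0.08 in PKO-NF1 vs PKO, -0.46 in PKO vs WT and -0.16 in PKO-NF1 vs NF1. The number called higher in PKO-NF1 vs NF1 was 1, against 0 with total counts alone, 0 with length and GC trends removed and 2 at 1.5-fold (Car3 and Car4). The number called lower in NF1 vs WT was 0, against 1 (Car4) with trends removed, at 1.5-fold or with PKO as the control. In PKO-NF1 vs PKO the number lower was 0, against 1 (Car5b) with trends removed or at 1.5-fold and 1 (Car12) with WT as the control, where the number higher was 1 (Car2) in place of 2. In PKO vs WT, 1 member (Car3) was called higher at 1.5-fold. With WT as the control the log2 ratio of Car12 in PKO-NF1 was -1.07, against a call in the other direction over the 2 counts of PKO. The cause of these changes was not tested, apart from the lower threshold, which admits more genes. No paired analysis was possible because each genotype has 1 library, and no library could be left out for the same reason. Depth limits Car9 and Car12, which had 1 count in PKO-NF1 and 2 in PKO at their lowest.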
